A study of Mus with 2 samples.

Results

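The genes described here are 5 genes of receptor-mediated endocytosis in the proximal tubule: Lrp2, Cubn, Amn, Dab2 and Clcn5. They were chosen by symbol from the 28693 features of the count matrices, and all 5 were present and passed the filter on low counts. They were followed through cell types of the newborn mouse kidney, in single-cell RNA libraries made from whole kidneys at P0 on the 10x Chromium platform. Both libraries carried the genotype Rbpj c/- ; Foxd1cre/+, in which Foxd1Cre removes a floxed allele of Rbpj, the DNA-binding partner of Notch, in the renal interstitium. The study also names control kidneys (Rbpj c/+ ; Foxd1cre/+). They are not analysed here. Every value therefore describes mutant kidneys, and genotypes are not compared. The labels do not say whether the 2 libraries came from separate animals or pools, so p-values measure the spread between these libraries, which may be technical.

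Filtered proteins are taken back up by the proximal tubule through endocytosis at the brush border. Megalin, encoded by Lrp2, is a very large receptor of the LDL receptor family, and cubilin, encoded by Cubn, is a large receptor without a membrane-spanning segment of its own. Amnionless, encoded by Amn, anchors cubilin and carries it to the surface. Disabled-2, encoded by Dab2, is an adaptor that links the cytoplasmic tail of megalin to clathrin. Clcn5 encodes a chloride/proton exchanger of the endosome, and its loss causes Dent disease, in which small proteins are lost in the urine. Albumin and the carrier proteins of vitamins A, D and B12 are among the ligands.

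On GRCm38.p6 (mm10), RefSeq places Lrp2 on chromosome 2 at 69424335 to 69586029 and Cubn on the same chromosome at 13276338 to 13491876. Amn lies on chromosome 12 at 111271096 to 111276426, Dab2 on chromosome 15 at 6299788 to 6440715 and Clcn5 on chromosome X at 7153810 to 7319358. All are protein-coding, and the coordinates span the whole gene with exons, introns and UTRs. The long noncoding gene Gm16311 overlaps Dab2 and was also counted, so reads could be split between them. The matrices give 1 count per gene and do not separate isoforms.

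The libraries held 163405630 and 135436576 unique molecular identifiers (UMIs, one per captured transcript) in replicates 1 and 2. After filtering, 5910 and 4937 cells were kept, with medians of 11767 and 12193 UMIs, and 8 of the barcodes with at least 2000 UMIs occurred in both libraries. Cells were assigned to types by marker lists that held none of the 5 genes, which gave a type to 84.0% and 85.1% of them. Types are written "-like" because they rest on these markers alone. Proximal tubule-like cells numbered 172 and 116, and all 10 of their markers, such as Slc34a1 and Spp2, were highest in that type. Proximal precursor-like cells, which had to carry both Osr2 and Cdh6, numbered 281 and 196. These 2 markers were highest there, while Hnf4a, also on the list, was higher in proximal tubule-like cells. The median mitochondrial share was 7.27% and 7.94% in proximal tubule-like cells against 5.11% and 5.35% in precursor-like cells.

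Lrp2 stepped up along the proximal lineage. In CPM, a gene's UMIs per 1000000 UMIs summed over the cells of a type, it stood at 1640 in replicate 1 and 1691 in replicate 2 in proximal tubule-like cells (mean 1666 ± 36.1, SD, n = 2). Precursor-like cells had 472 and 462 CPM (467 ± 6.51). Early nephron-like cells, which carry the renal vesicle and comma-shaped body markers Lhx1 and Wnt4, had 9.85 and 10.1 CPM. The 3 stages did not overlap between libraries.

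Outside the proximal lineage the Lrp2 level was low in all but 1 type. Cells of the distal tubule marker gate, called distal gate cells here because their leading genes go beyond that segment, had 61.7 and 52.8 CPM and are described further below. The other types with 20 or more cells in each library lay between 2.81 CPM, in macrophage-like cells, and 17.3 CPM, in distal precursor-like cells. Erythroid-like cells, which should lack the gene, had 7.91 and 10.8 CPM, and levels near that were read as background. Most neighbours in this low range overlapped between libraries. Droplets of 10 to 100 UMIs, which sample free RNA, had 81.1 and 96.8 CPM.

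Cubn, its co-receptor, was high in the same 2 types. Proximal tubule-like cells had 156 and 138 CPM (147 ± 12.7), and precursor-like cells had 45.4 and 41.3 CPM (43.3 ± 2.94). The highest value elsewhere, in types with at least 20 cells per library, was 3.87 CPM in distal precursor-like cells of replicate 1. No Cubn UMI was found in macrophage-like cells of either library, where 3 counts would have been 1.69 and 2.47 CPM. Proximal tubule-like cells were therefore at least 92.4-fold higher in replicate 1 and at least 56.0-fold higher in replicate 2, with the floor of 3 counts set per library.

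Amn, the partner of cubilin, followed the same order. Its level was 284 and 339 CPM in proximal tubule-like cells (312 ± 38.9) and 82.3 and 102 CPM in precursor-like cells (92.2 ± 14.0). Loop of Henle-like cells came next, at 6.89 CPM in replicate 1 and 9.72 in replicate 2, from 18 and 21 UMIs. Both were above every other non-proximal type, where the highest value was 5.70 CPM in distal precursor-like cells. In erythroid-like cells Amn stood at 1.13 and 1.63 CPM, and in free RNA droplets at 19.6 and 21.8 CPM.

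Dab2, the adaptor, had another order. It was highest in macrophage-like cells, at 998 and 1443 CPM (1220 ± 314), and then in proximal tubule-like cells, at 459 and 554 CPM (506 ± 67.0). Precursor-like cells had 277 and 261 CPM. Podocyte-like cells followed at 121 and 117 CPM, then stroma-like cells at 85.6 and 77.7, mural-like cells at 79.4 and 72.3 and endothelial-like cells at 56.4 and 58.7. Stroma-like and mural-like values overlapped, and the other steps in this series did not. Distal precursor-like cells (12.4 and 5.92 CPM) and loop of Henle-like cells (6.13 and 7.41) were near the erythroid-like level of 7.53 and 4.34. Free RNA droplets held 198 and 169 CPM of Dab2, above podocyte-like, stroma-like, mural-like and endothelial-like cells. The part of free RNA in those levels was not tested.

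Clcn5, the endosomal exchanger, was graded over the whole nephron. Proximal tubule-like cells had 155 and 160 CPM (158 ± 3.41), the highest of all types. Distal gate cells (131 and 113 CPM), precursor-like cells (111 and 122), macrophage-like cells (86.1 and 113) and loop of Henle-like cells (81.2 and 103) formed a second tier in which neighbours overlapped. Distal precursor-like cells had 58.6 and 54.3 CPM, early nephron-like cells 46.4 and 44.4, ureteric epithelium-like cells 48.3 and 38.5 and nephron progenitor-like cells 28.3 and 26.0. Podocyte-like cells stood apart from these epithelia at 12.0 and 7.63 CPM. The erythroid-like level was 5.27 and 3.25 CPM. That of free RNA droplets was 60.2 and 62.9 CPM, and its part in the lower levels was not tested.

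**Figure D1:**
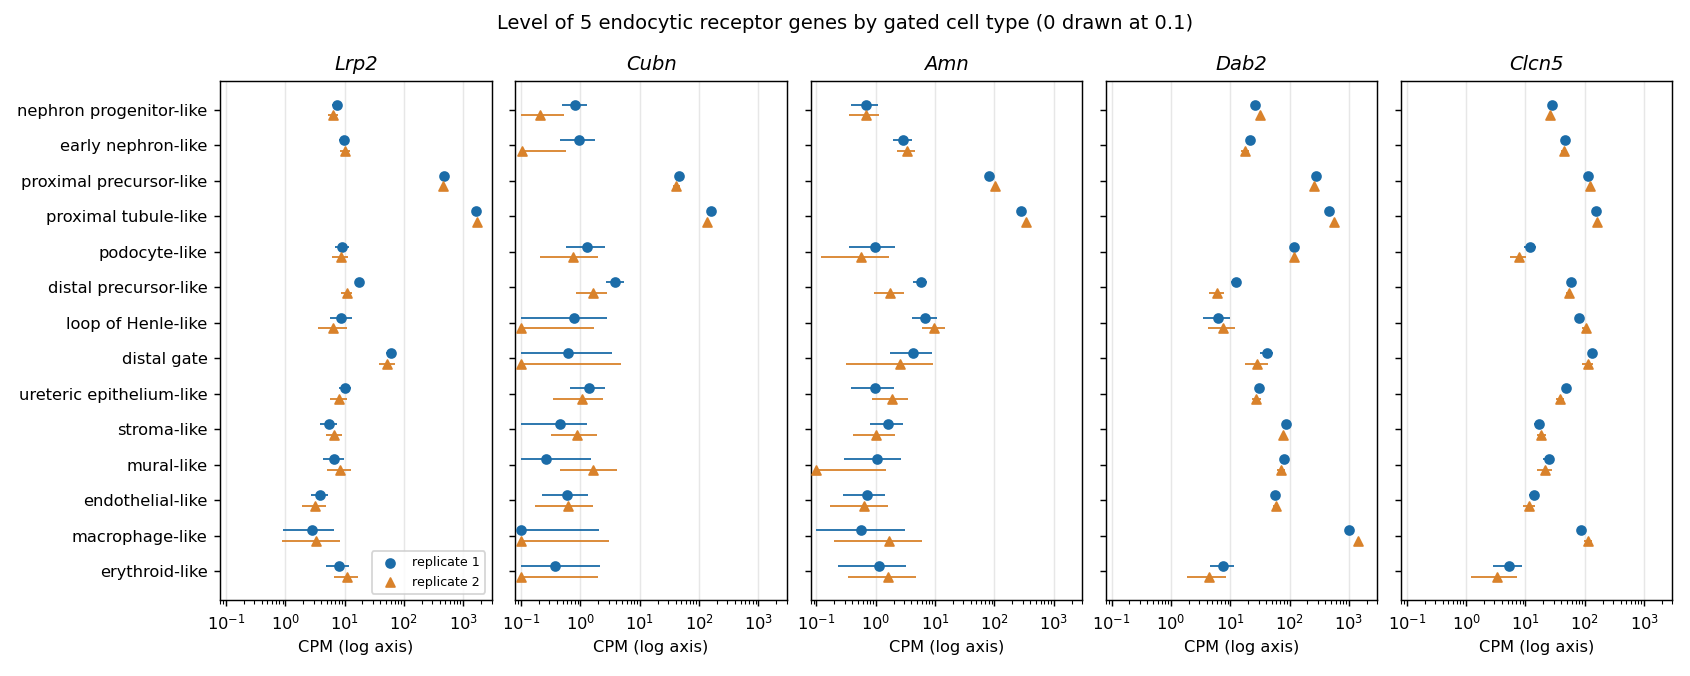
Level of each gene in CPM (x axis, log scale) in 14 gated cell types (y axis). Circles are replicate 1, triangles replicate 2, lines are exact 95% Poisson intervals, and values of 0 are drawn at 0.1. Lrp2, Cubn and Amn are high in the 2 proximal types, Dab2 is highest in macrophage-like cells at 998 and 1443 CPM, and Clcn5 spreads over the nephron.

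The share of each gene's UMIs that lay in the 2 proximal types set the genes apart in the same way. It was 84.3% and 82.6% for Lrp2, 80.4% and 81.4% for Cubn and 80.6% in both libraries for Amn. For Dab2 it was 44.3% and 41.2%, and for Clcn5 33.2% and 32.3%. Many of the Lrp2 UMIs in cells without a type also came from cells near these 2 types. Of them, 84.9% and 88.2% lay in cells whose highest marker score was a proximal one.

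By edgeR's quasi-likelihood test, all 5 genes were higher in proximal tubule-like cells than over the 11 non-proximal types in the fit. The 11 types entered as the mean of their logs, not the log of their mean. On the log2 scale the difference was 7.74 ± 0.06 (SE here and below; adjusted p = 9e-29) for Lrp2 and 7.61 ± 0.12 (adjusted p = 1.8e-23) for Amn in that edgeR test. Cubn stood at 8.05 ± 0.16, a value that depends on the prior count because macrophage-like cells had no UMI; it was 7.41 at a minimum of 500 UMIs and 7.17 with doublets kept. Dab2 was 3.58 ± 0.10 higher and Clcn5 2.42 ± 0.09 higher. Macrophage-like cells, which are among the 11 types, had more Dab2 (998 and 1443 CPM) than proximal tubule-like cells (459 and 554 CPM). Of all 15360 genes tested, 31.8% were called higher and 26% lower in this comparison, 57.8% together.

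Between precursor-like and proximal tubule-like cells all 5 genes rose again, with the receptors and Amn ahead of the adaptor and the exchanger. By edgeR, Lrp2 rose by 2.03 ± 0.10 on the log2 scale (adjusted p = 4.8e-13), Cubn by 1.95 ± 0.15 (adjusted p = 1.2e-09) and Amn by 1.95 ± 0.14 (adjusted p = 2.9e-10). Dab2 rose by 1.10 ± 0.15 (edgeR adjusted p = 4.2e-06) and Clcn5 by 0.63 ± 0.12 (edgeR adjusted p = 0.00023). Of all genes tested, 23.6% were called higher and 18.9% lower, 42.5% together. The groups of libraries did not overlap for any of the 5 genes, but how many of all genes tested share this was not counted. Without scaling between columns the median of all genes moved by 0.17, and the rises ranged from 0.44 for Clcn5 to 1.84 for Lrp2.

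The earlier step, from early nephron-like to precursor-like cells, was larger for each gene. Lrp2 rose by 5.57 ± 0.13 (edgeR adjusted p = 1.6e-18), Cubn by 6.31 ± 0.32, Amn by 4.91 ± 0.22 and Dab2 by 3.80 ± 0.19. Clcn5 rose by 1.39 ± 0.13 (edgeR adjusted p = 9.6e-09). In this comparison 24% of genes were called higher, 20.7% lower and 44.6% either way. At a mitochondrial limit of 5% the rise was 4.71 for Lrp2, 5.39 for Cubn and 2.82 for Dab2, and without cells over 50000 UMIs it was 4.84 for Lrp2, 5.25 for Cubn and 4.28 for Amn. The Cubn value rests on 10 and 1 UMIs in early nephron-like cells, and without replicate 1 it was 7.76. The size of the 2 steps was not compared by a test, and both use the precursor-like cells.

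To place the rises within the precursor stage, precursor-like and proximal tubule-like cells of each library were divided into tertiles by their proximal tubule marker score, which used none of the 5 genes. This division was added after the levels had been seen, and a tertile is a range of a score, not a cell type. In the lowest tertile of precursor-like cells Lrp2 stood at 188 and 177 CPM, which is 11.5% and 10.5% of the level over all proximal tubule-like cells. Amn stood at 10.1% and 7.98% of its own proximal tubule level there. Cubn stood at only 3.13% and 3.35%, from 10 and 7 UMIs. Dab2 had already reached 24.4% and 18.0%, and Clcn5 52.2% and 58.5%.

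The gap between Cubn and Lrp2 was smaller in the next tertile. There Lrp2 stood at 17.7% and 19.6% and Cubn at 15.9% and 14.8% of the proximal tubule level. In the highest tertile of precursor-like cells Lrp2 was at 44.7% and 44.3%, Cubn at 51.0% and 59.0% and Amn at 43.8% and 51.7%. Dab2 (89.9% and 73.3%) and Clcn5 (89.8% and 91.0%) were near their proximal tubule level by then. Median depths of the 3 precursor tertiles lay between 17735.5 and 22201 UMIs, but the levels are sums in which deep cells weigh more. Over all precursor-like cells the median Lrp2 level per cell was 287 and 290 CPM, against 472 and 462 CPM for the sums. Without cells over 50000 UMIs, precursor-like cells held 1757 and 1437 Lrp2 UMIs, against 3976 and 2711 with them. The tertiles were not repeated without such cells.

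Counted against each other in the same cells, Cubn made up 2.53% of the joint Cubn and Lrp2 UMIs in the lowest tertile in replicate 1 (exact 95% binomial interval 1.22 to 4.60%) and 2.55% in replicate 2 (1.03 to 5.17%). In proximal tubule-like cells its share was 8.68% (8.17 to 9.21%) and 7.54% (6.97 to 8.14%). The intervals did not overlap between the stages in either library. These intervals cover counting error only, and the difference was not tested across libraries. Free RNA droplets held 7.85 and 6.05 CPM of Cubn beside 81.1 and 96.8 of Lrp2, and their part in the low counts was not tested.

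**Figure D2:**
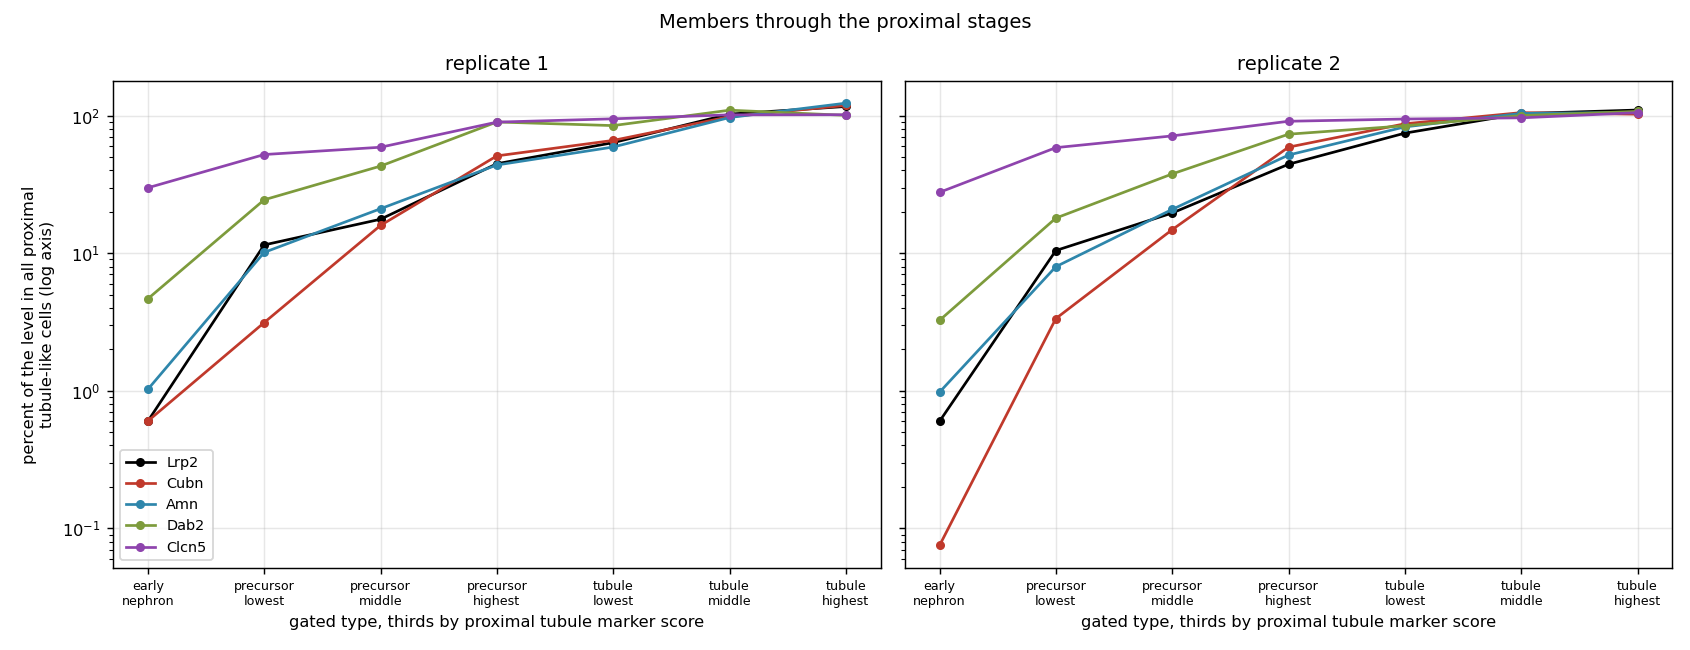
Each gene's level as a percent of its level over all proximal tubule-like cells (y axis, log scale) from early nephron-like cells through tertiles of precursor-like and proximal tubule-like cells (x axis), with 1 panel per library. In both panels Clcn5 and Dab2 start highest, and Cubn lies below Lrp2 and Amn in the lowest precursor tertile (3.13% and 3.35% against 11.5% and 10.5% for Lrp2); the early nephron-like Cubn points rest on 10 and 1 UMIs.

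Within proximal tubule-like cells all 5 genes were higher in the highest than in the lowest tertile in both libraries. Lrp2 went from 1044 CPM in the lowest tertile to 1913 in the highest in replicate 1, and from 1262 to 1858 in replicate 2. Amn went from 168 to 350 CPM and from 281 to 358. Cubn went from 103 to 185 CPM and from 120.5 to 141, and Dab2 from 389 to 462 and from 467 to 595. The middle tertile was the highest for Dab2 in replicate 1 (503 CPM) and for Cubn in replicate 2 (145 CPM). Clcn5 moved little, from 147 to 158 CPM and from 151 to 168. Median depth rose alongside, from 18423.5 to 29758 UMIs in replicate 1 and from 17224 to 41106.5 in replicate 2, and its part in these values was not tested.

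Per cell, the same picture held at equal depth. Cells were thinned to 4600 UMIs, which left out 4 and 5 proximal tubule-like cells and no precursor-like cell. A Lrp2 UMI was then found in 97.6% and 100% of proximal tubule-like cells (168 and 111 cells), against 66.9% and 65.8% of precursor-like cells. Unthinned shares were 99.4% and 98.3%, and 90.0% and 90.8%, at median depths of 22368.5 and 22770.5, and 19475 and 19907 UMIs. In erythroid-like cells, thinned alike, the share was 2.48% and 3.95%, and in early nephron-like cells it was 4.09% and 4.12%, which lies within the erythroid-like intervals.

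Cubn was found in 41.7% and 44.1% of thinned proximal tubule-like cells and in 11.7% of precursor-like cells of both libraries. Amn was found in 72.0% and 75.7%, and in 26.7% and 26.5%. The Dab2 shares were 88.1% and 89.2% against 60.9% and 61.2%, and the Clcn5 shares were 54.2% and 50.5% against 28.8% and 32.7%. For all 5 genes the shares of proximal tubule-like cells lay above the exact 95% intervals of precursor-like cells in the same library. In erythroid-like cells none had Cubn, and Amn, Dab2 and Clcn5 were each in 2.07% or less. The shares depend on the depth chosen: Cubn was found in 22.7% and 17.2% of proximal tubule-like cells at 2000 UMIs and in 76.7% and 68.6% at 12000, above precursor-like cells at both depths.

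**Figure D3:**
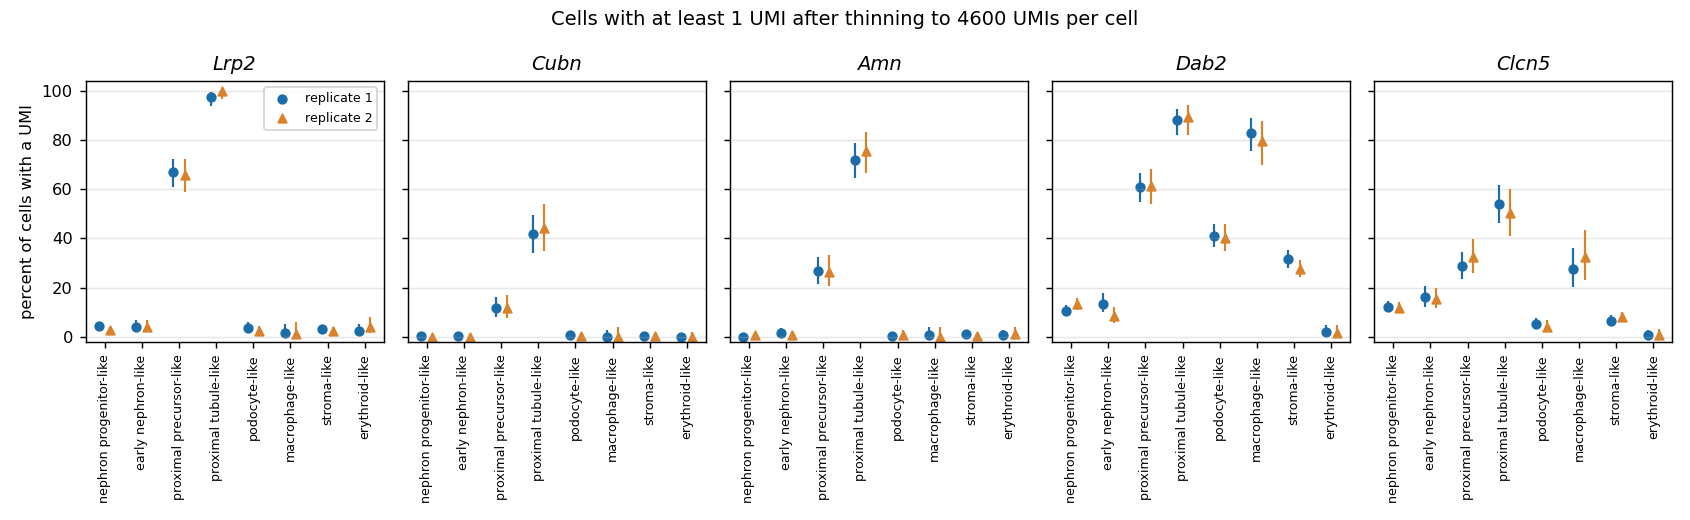
Percent of cells with at least 1 UMI of each gene (y axis) in 8 gated types (x axis) after thinning every cell to 4600 UMIs. Circles are replicate 1, triangles replicate 2, and lines are exact 95% binomial intervals; the proximal tubule-like share of Lrp2 is 97.6% and 100%, and macrophage-like cells reach 82.8% and 79.8% for Dab2.

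The receptor, its co-receptor and the anchor were often found in the same cell. At a depth of 12000 UMIs, 117 of 159 proximal tubule-like cells in replicate 1 (73.6%) and 70 of 105 in replicate 2 (66.7%) had Lrp2, Cubn and Amn together. These shares were near the 71.9% and 65.3% given by multiplying the 3 separate shares. In precursor-like cells the 3 occurred together in 48 of 250 cells (19.2%) and 29 of 181 (16.0%), against products of 12.2% and 8.71%. All 5 genes were found together in 59.7% and 52.4% of proximal tubule-like cells and in 11.2% and 8.29% of precursor-like cells. These are descriptions of cells that share a library and differ in maturity, with no test.

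The Dab2 level of macrophage-like cells was tested against proximal tubule-like cells. It was 1.23 ± 0.16 higher on the log2 scale (edgeR adjusted p = 4.8e-07), with macrophage-like values above proximal tubule-like values in both libraries. In this comparison 26.4% of genes were called higher and 28.9% lower, 55.3% together. Clcn5 was lower by a small step, with a log2 difference of -0.71 ± 0.15 (edgeR adjusted p = 0.00033). Lrp2 (-9.15 ± 0.21) and Amn (-8.27 ± 0.39) were lower too, at background in macrophage-like cells, from 5 and 4 and from 1 and 2 UMIs. With doublets kept these differences were -6.91 and -7.07. In thinned macrophage-like cells Dab2 was found in 82.8% and 79.8% and Clcn5 in 27.6% and 32.6%.

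Podocytes, which form the filter upstream of the proximal tubule, and the ureteric epithelium, which forms the collecting ducts, are both sites where expression of Lrp2 has been reported. Lrp2 stood at 9.18 and 8.58 CPM in podocyte-like cells and at 10.3 and 7.94 in ureteric epithelium-like cells, near the erythroid-like level. By edgeR, the podocyte-like difference from the mean of the logs of the other non-proximal types was 0.01 ± 0.15 (adjusted p = 1) and the ureteric one was 0.05 ± 0.17 (adjusted p = 0.91). The podocyte-like value turned to -0.41 (edgeR adjusted p = 0.0096) when doublets were kept. The ureteric value became 1.36 at a mitochondrial limit of 5% (edgeR adjusted p = 0.0013) and 0.40 without scaling between columns (edgeR adjusted p = 0.045), so no direction is given for either.

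Dab2 and Clcn5 did differ in those 2 types. In podocyte-like cells Dab2 was 1.43 ± 0.13 higher on the log2 scale than the mean of the logs of the other types (edgeR adjusted p = 3.3e-09), and it was found in 41.0% and 40.3% of thinned cells. Clcn5 was lower there, by a log2 difference of -1.93 ± 0.17 (edgeR adjusted p = 1.1e-09). Of all genes, 31.8% were called higher and 24.8% lower there, 56.6% together. In ureteric epithelium-like cells Clcn5 was 0.39 ± 0.12 higher (edgeR adjusted p = 0.0094) and Dab2 differed by -0.82 ± 0.18 (edgeR adjusted p = 0.00051), against 27.7% of genes called higher, 15.7% lower and 43.5% either way. The Clcn5 call there was lost at a mitochondrial limit of 5%, where the difference was 0.05 (edgeR adjusted p = 0.99). Cubn and Amn passed this edgeR test in neither type, though Amn passed at a lower level in podocyte-like cells under some other settings.

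Distal gate cells were gated by distal tubule markers such as Slc12a3 (the thiazide-sensitive transporter) and Tmem52b, and 4 of their 6 markers were highest in them. Of their 10 leading genes by fold only 1, Tmem52b, was such a marker, and others were Aqp3, Scnn1b, Rhcg and Atp6v1g3, known from the connecting tubule and collecting duct. The segment of these cells is therefore not named. They numbered 32 and 12, too few in replicate 2 for the fit. Lrp2 UMIs were found in 20 of 32 cells and in 9 of 12, with 101 and 41 UMIs in all and at most 15 and 10 in 1 cell. Thinned to 4600 UMIs, Lrp2 was found in 7 of 30 cells (23.3%) and 1 of 11 (9.09%), against 2.48% and 3.95% of erythroid-like cells, from median distal depths of 28097 and 76648.5 UMIs. Cubn had 1 and 0 UMIs in the same cells, and Amn 7 and 2. The proximal tubule markers Slc34a1 (1.22 and 1.29 CPM) and Spp2 (0.611 and 1.29 CPM), chosen after their values were seen, were near 0 in them.

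The gate requires a lead over the proximal tubule list, which holds both markers, so the gate itself favours cells low in them. The part of proximal RNA in the Lrp2 counts was not tested. In free RNA droplets Lrp2 stood at 81.1 and 96.8 CPM, above its level in distal gate cells. Distal gate cells were also deep: 13 and 7 of them exceeded 50000 UMIs, and without such cells Lrp2 stood at 58.0 and 32.8 CPM from 18 and 3 UMIs. The cells also had 424 and 416 CPM of Gata3, a marker of the connecting and ureteric epithelium.

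At a mitochondrial limit of 20% the type held 97 and 79 cells, and Lrp2 stood at 59.5 and 55.8 CPM. A fit on those cells was added after the levels had been seen. In it Lrp2 was 2.55 ± 0.16 higher than the mean of the logs of the 11 other non-proximal types (edgeR adjusted p = 2e-12). Clcn5 was 2.17 ± 0.08 higher (edgeR adjusted p = 2.8e-16) and Amn 1.31 ± 0.44 higher (edgeR adjusted p = 0.014). Cubn did not pass, with a log2 difference of -1.97 and no finite SE. Dab2 differed by -0.73 ± 0.21 (edgeR adjusted p = 0.0051). The background was 30.8% of genes called higher, 22.5% lower and 53.2% either way. At a limit of 5% only 2 and 1 such cells remained, with no Lrp2 UMI, so the value rests on cells of higher mitochondrial share.

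The other genes of the pathway were read from 7 lists of 81 genes. Between precursor-like and proximal tubule-like cells most machinery genes rose with the 5 genes described here, whose own median change was 1.95. Over all genes tested, 23.6% were called higher and 18.9% lower. Of 12 clathrin and AP-2 genes 10 rose and none fell (median log2 change 0.52), with Cltc, the clathrin heavy chain, going from 278 and 273 to 492 and 535 CPM (1.09 ± 0.10). Of 15 endosome and lysosome genes 13 rose and none fell (median 0.96). Lamp1, a lysosomal membrane protein, rose by 1.52 ± 0.11 and Ctsb, a lysosomal protease, by 1.54 ± 0.12. The median over all 15360 genes was -0.004.

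Acidification genes moved the same way, with 11 of 13 higher and none lower (median 0.905), beside 23.6% of all genes called higher. Atp6v0a4, a kidney subunit of the proton pump, went from 14.9 and 14.5 to 128 and 91.0 CPM (3.09 ± 0.13), and Atp6v1b2 rose by 1.56 ± 0.10. Of 11 adaptors and partners 7 rose and 4 did not pass (median 0.30). Among those that rose were Ehd1, of the recycling endosome (1.14 ± 0.11), and Inpp5b, a phosphoinositide phosphatase (1.61 ± 0.20). Ocrl, the phosphatase mutated in Lowe syndrome, named after its value was seen, stood at 0.09 ± 0.15 and did not pass (edgeR adjusted p = 0.67).

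Of the 10 tested genes of the LDL receptor family 3 rose, 1 fell and 6 did not pass (median 0.24), shares near the 23.6% and 18.9% of all genes. Vldlr went from 56.3 and 67.9 to 146 and 181 CPM (1.59 ± 0.13), while Lrp1, a broadly expressed endocytic receptor, went from 25.9 and 19.3 to 2.34 and 3.19 CPM. The log2 change of Lrp1 was -2.90 ± 0.23 (edgeR adjusted p = 9.8e-10). Lrp1 was 232 and 233 CPM in macrophage-like cells, and 43.8 and 39.3 in early nephron-like cells. Its earlier step was a log2 change of -0.83 ± 0.13, so Lrp1 fell over both steps in which Lrp2 rose. The other members that rose were Lrp10, at a log2 change of 0.995 ± 0.12, and Lrp6, at 0.36 ± 0.13, named after their values were seen.

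Of 11 genes of ligand uptake and vitamin handling 8 rose, 1 fell and 2 did not pass (median 1.785), beside 23.6% and 18.9% of all genes called higher and lower. Gatm, an enzyme of creatine synthesis, rose by 4.65 ± 0.11. Cyp27b1, which makes the active form of vitamin D, went from 1.19 and 0.17 to 78.9 and 26.7 CPM (6.36 ± 0.36), with replicate 1 well above replicate 2. Tcn2, a carrier of vitamin B12, rose by 2.87 ± 0.14. The gene that fell was Gc, the vitamin D-binding protein (-1.03 ± 0.36). Tcn2 and Gc lie outside the rule for named genes and were chosen after their values were seen.

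**Figure D4:**
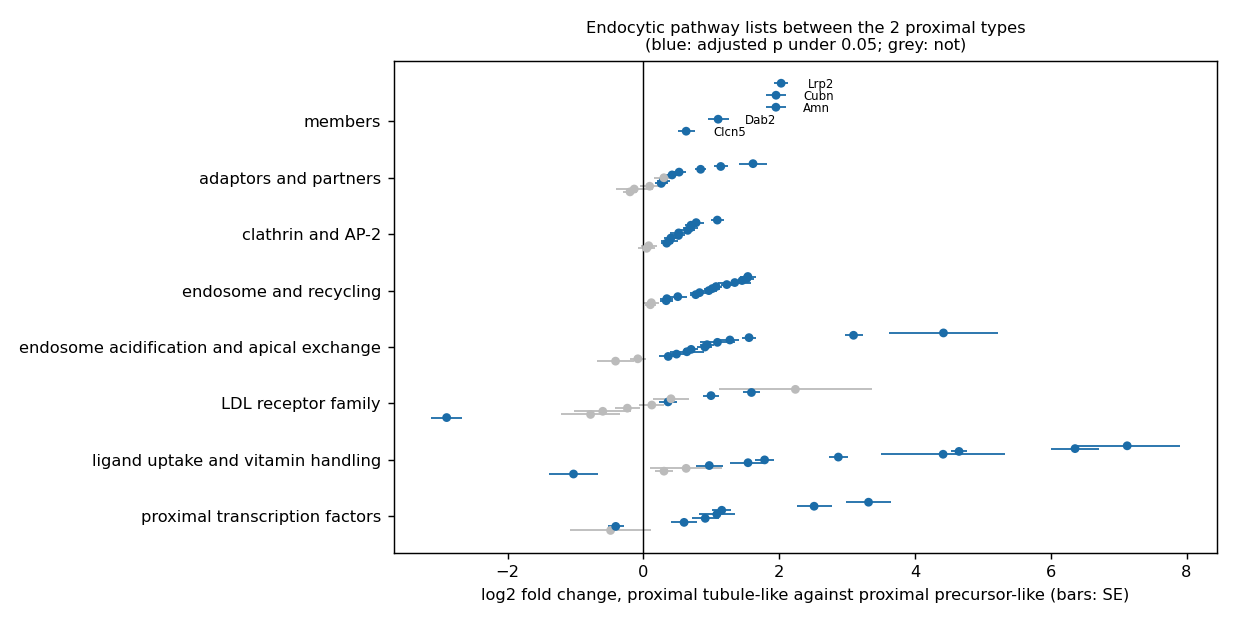
Log2 fold change between proximal tubule-like and precursor-like cells (x axis, bars are SE) for the 5 genes and 7 pathway lists (y axis, 1 point per gene tested). Blue points passed an adjusted p of 0.05 and grey points did not; the clathrin, endosome, acidification and adaptor lists hold no blue point below 0, and the blue point at -2.90 is Lrp1.

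The earlier step, from early nephron-like to precursor-like cells, already held much of this. Lrpap1, the chaperone that keeps megalin free of ligand during synthesis, went from 47.8 and 46.5 to 345 and 339 CPM, and on to 555 and 520 in proximal tubule-like cells. Folr1, the folate receptor, rose by 4.29 ± 0.18 and Slc9a3r1, a scaffold of the brush border, by 2.76 ± 0.11. In all, 12 of 15 endosome genes, 8 of 13 acidification genes and 8 of 12 clathrin genes were higher and none of these lists held a lower call, beside 24% of all genes called higher and 20.7% lower. Myo6, a motor that binds Dab2, rose by 1.49 ± 0.11. In the LDL receptor family 4 rose (Vldlr, Sorl1, Lrp6 and Lrp10) and 5 fell (Lrp1, Lrp4, Lrp5, Lrp8 and Lrp12). Vldlr rose by 2.57 ± 0.16 and Lrp4, a co-receptor of Wnt and agrin signalling, changed by -4.12 ± 0.24.

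Among 8 transcription factors of the proximal tubule, 7 were higher in precursor-like than in early nephron-like cells, and 6 rose, 1 fell and 1 did not pass in the step to proximal tubule-like cells. Over all genes 24% were called higher and 20.7% lower in the first step, and 23.6% and 18.9% in the second. Nr1h4, the bile acid receptor, rose by 3.32 ± 0.33 in the second step, from 8.30 and 7.85 to 72.4 and 69.1 CPM. Hnf4a is a marker of the precursor gate, so its difference is no result. In macrophage-like cells, where Dab2 is high, the lysosomal proteases Ctsb (3.45 ± 0.12) and Ctsd (2.31 ± 0.12) were above proximal tubule-like cells. There 10 of 11 genes of ligand uptake and vitamin handling were lower, beside 28.9% of all genes, and Folr1 differed by a log2 difference of -9.24 ± 0.35. The other was Fcgrt, the neonatal Fc receptor, which was 2.27 ± 0.20 higher. Fcgrt was named after its value was seen.

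Likeness of pattern was described by Pearson's r of log2(CPM + 1) over 26 columns, 13 types in each of 2 libraries, which share library and depth. Lrp2 was most like Ugt2b37, Myo15b, Cdhr2, Dao and Slco1a6 (r from 0.978 to 0.981), and Cubn most like Myo15b, Slc23a3, Fbp2, A1cf and Gm10804. Amn was most like Asb9, Mep1a, RP23-306P12.2, Dao and Tmem174. Among the 5 genes, r was 0.978 between Lrp2 and Cubn and 0.951 between Lrp2 and Amn, against 0.395 between Lrp2 and Dab2 and 0.548 between Lrp2 and Clcn5. Dab2 was most like Maf (r = 0.941), followed by Renbp, Cotl1, Gm15655 and Pyroxd2. Clcn5 was most like Eps8 (r = 0.943), followed by Aph1c, Snx29, Slc5a6 and Slc46a1.

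Maf, a transcription factor of macrophages and of the proximal tubule, stood at 943 and 1582 CPM in macrophage-like cells, 896 and 1025 in proximal tubule-like cells and 519 and 524 in precursor-like cells. Dab2 ranked the 3 types in the same order by the mean of the libraries. In replicate 1 the macrophage-like and proximal tubule-like levels of Maf were close, while those of Dab2 were 998 and 459 CPM.

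The Lrp2 levels in the proximal types moved more between filters than between libraries. With a mitochondrial limit of 5% Lrp2 fell to 675 and 743 CPM in proximal tubule-like cells, of which 24 and 17 were left, and to 258 and 212 CPM in 124 and 77 precursor-like cells. The mean levels of the other 4 genes in those proximal tubule-like cells were 100.3 CPM for Cubn, 214 for Amn, 312 for Dab2 and 96.3 for Clcn5. In the precursor-like cells they were 18.1 CPM for Cubn, 66.6 for Amn, 142 for Dab2 and 87.2 for Clcn5, so the types lay closer for Clcn5. With a limit of 20% it stood at 1804 and 1828 CPM, and at 525 and 548 CPM. Without cells over 50000 UMIs the precursor-like level was 357 and 394 CPM. In each of these settings the level in proximal tubule-like cells was above that in precursor-like cells in both libraries, and mitochondrial share moved with the level. Fewer transcripts per cell of one gene and more of all others cannot be told apart in CPM.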

How the data were processed

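Single-cell libraries from kidneys at P0 were analysed as 1 group of 2 replicates, numbered in accession order. The deposited values were raw UMI counts per gene and barcode, unfiltered. Per the file headers they came from Cell Ranger 4, while Cell Ranger 6.0.1 and mm10 stand in the submitters' processing notes. Barcodes with at least 2000 UMIs and at most 10% mitochondrial UMIs were kept. The highest Scrublet scores, at 0.8% per 1000 barcodes, were removed as doublets (310 and 212), because the automatic threshold would have called 3 and 33.

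Counts were scaled to 10000 per cell, log-transformed, standardised, clipped at 5 SD and averaged over 15 marker lists (107 genes). A cell took the type with the highest average if this was at least 0.5, led the next by 0.25 and 3 markers had a UMI. Proximal precursors needed Osr2 and Cdh6. UMIs were summed per library and type. The 13 types with 20 or more cells in each library entered 1 edgeR 4.0.16 quasi-likelihood fit (R 4.3.3, TMM, filterByExpr, type plus library as a block, 26 columns, 12 residual degrees of freedom), with Benjamini-Hochberg adjustment over 15360 genes and a threshold of 0.05. Neutrophil-like and distal gate cells were left out of it. The library block rests on the types of a library coming from the same sample. Standard errors are the absolute log2 fold change over the square root of F. The fit was tested on simulated data for the step from precursor-like to proximal tubule-like cells with 14256 genes, where 163 of 188 changed genes were called with 11 false calls. Before the change, each simulated gene had the same mean in all types. All genes shared a common dispersion and there was no library effect. The simulation is simpler than the data and does not give the error rate of the real fit.

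Intervals are exact Poisson or binomial at 95% and cover counting error only, and a count of 0 was given a floor of 3 counts. Named genes were the 5 members, the 2 called genes with the largest change per list at a mean of 10 CPM or more, and the 5 genes with the highest r per member, without gate markers for r. Some list genes are not reported here. The members and lists were chosen with earlier results of these data known. Alternatives covered filters, gates, doublets, thinning depth, normalization, DESeq2 1.42.0, the block and each replicate. Python 3.11.15 with scanpy 1.11.5, scipy 1.17.1 and matplotlib 3.10.9 was used.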

Additional observations from a re-analysis of the deposited data

Results flagged for a closer look

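Signals of 3 genes appeared in cells outside the fit of 13 types, above the level in erythroid-like cells. In distal gate cells, Lrp2 stood at 61.7 CPM in replicate 1 and 52.8 in replicate 2, from 101 and 41 UMIs. Clcn5 stood at 131 and 113 CPM in the same cells, and Dab2 at 40.9 and 28.3 CPM. Lrp2 also stood at 108 and 128 CPM in cells that received no type.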

How the results depend on the processing

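The calls of all 5 genes between early nephron-like, precursor-like and proximal tubule-like cells, and between macrophage-like and proximal tubule-like cells, kept their direction and stayed past the threshold in every alternative that gave a test. At a mitochondrial limit of 5% fewer than 20 proximal tubule-like cells were left in replicate 2, so their contrasts gave no value. Genes called there fell from 6856 to 3526 for precursor-like against early nephron-like cells and from 6675 to 3467 for ureteric epithelium-like cells. Podocyte-like Lrp2 turned to -0.414 with no doublet removal, where 4 of the 5 genes passed, beside 8768 of all 15415 genes, instead of 2, beside 8699 of 15360. Podocyte-like Amn, otherwise not called, passed at -1.401 with a minimum of 500 UMIs, -1.433 at the 5% limit, -1.345 with no doublet removal, -1.300 without the low-count filter and -1.338 in DESeq2. In ureteric epithelium-like cells Lrp2 passed at 1.359 at the 5% limit and at 0.399 without scaling, and Clcn5 was lost at 0.048 at the 5% limit. The cause was not tested. Without scaling, the median of all genes shifted by 0.168 for proximal tubule-like against precursor-like cells, -0.317 for podocyte-like and -0.344 for ureteric epithelium-like cells. The fits without scaling, without barcodes over 50000 UMIs and without the erythroid type were added after seeing the data.

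With 1 library left out there was no test, and log2 differences were values only. For proximal tubule-like against precursor-like cells Cubn was 1.957 to 1.962 and Amn 1.949 to 1.971. For precursor-like against early nephron-like cells Lrp2 was 5.519 to 5.596, Amn 4.815 to 4.930 and Cubn 5.520 to 7.758. For macrophage-like cells Cubn was -11.313 to -10.816 against -13.092 with both libraries, where they held no Cubn UMI, -8.731 at a minimum of 500 UMIs and -7.019 with doublets kept, so its size is not interpretable. In podocyte-like cells Lrp2 was -0.003 to 0.057, Cubn 0.804 to 1.090, Amn -1.340 to -0.886 and Dab2 1.439 to 1.511, and in ureteric epithelium-like cells Dab2 was -0.816 to -0.781. Podocyte-like Cubn, not called, was 0.835 with both libraries, 0.084 at a minimum of 500 UMIs, 0.061 without barcodes over 50000 UMIs and -0.152 with doublets kept. Without the replicate block the step to proximal tubule-like cells stood at 2.027 for Lrp2, and no call of the 5 genes changed without this pairing. With doublets kept Cubn in proximal tubule-like against non-proximal cells was 7.167, and at a minimum of 500 UMIs 7.407. Of the shares of cells under other thinning depths, 36 of 50 moved. Loop of Henle-like cells, at 66 and 59 per library, limit what can be seen of Cubn there.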
